A study of Mus musculus with 8 samples.

Results

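The genes described here are Cnp, which carries Cre recombinase on 1 of its 2 alleles in the knockout animals, and 5 genes close to it on mouse chromosome 11: Dnajc7, Nkiras2, Dhx58, Kat2a and Rab5c. They were chosen by name and position, with earlier results of these data known. All 6 of the 6 were found among the 55487 gene rows of the deposited table. Each also had enough counts to be among the 15056 genes tested. Polyadenylated RNA of mouse sciatic nerve, taken at postnatal day 6, was sequenced in 2 groups of 4 libraries, and values below are given in the order of replicates 1 to 4. Ctrl animals had the genotype CNP+/+ Cdk7lox/lox, that is, unmodified Cnp alleles and floxed Cdk7 alleles without Cre. CNP-Cdk7cKO animals had the genotype CNPcre/+ Cdk7lox/lox, with the same floxed Cdk7 alleles in every cell and Cre at 1 Cnp allele. Cre is therefore made where the Cnp promoter is active, which in nerve is the Schwann cell, and the other cells of the nerve should keep Cdk7. Because no group had Cre without floxed Cdk7, effects of the altered Cnp allele and of Cdk7 loss cannot be told apart by design. Nothing in the labels ties each library to an animal of its own, so the spread that p-values rest on is that of libraries and may be technical.

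Cnp encodes 2′,3′-cyclic nucleotide 3′-phosphodiesterase, a protein of the non-compact myelin of Schwann cells and oligodendrocytes that binds the cell membrane and the cytoskeleton. Because its promoter is so active in myelinating glia, it is used to drive Cre, and the allele that holds Cre is altered in its own coding region. The 5 neighbours serve unrelated processes: protein folding, NF-kappaB signalling, sensing of viral RNA, histone acetylation and endosome fusion. The comparison asks how far Cnp differs between the groups and whether its neighbours differ with it.

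The neighbourhood is compact. Cnp (ENSMUSG00000006782) lies on the plus strand of chromosome 11 from 100574904 to 100591729 (GRCm38, GENCODE vM21). Dnajc7 (ENSMUSG00000014195), on the minus strand from 100582818 to 100620168, overlaps it, and the genes share 154 exonic bases on opposite strands, 4.23% of the exonic bases of Cnp and 3.17% of those of Dnajc7. Nkiras2 (ENSMUSG00000017837) follows on the plus strand from 100619244 to 100627607 and starts 44.3 kb from the start of Cnp. Its exons share 287 bases with Dnajc7 and 65 bases with Zfp385c, both on the other strand. Dhx58 (ENSMUSG00000017830, 100694884 to 100704271), Kat2a (ENSMUSG00000020918, 100704746 to 100712465) and Rab5c (ENSMUSG00000019173, 100715009 to 100738215) lie on the minus strand, 103, 113 and 123 kb beyond the end of Cnp. Dhx58 shares 141 exonic bases with the antisense gene Dhx58os. The libraries were made with a stranded kit, but no source used here gives the strand setting of the counting, so reads in these shared stretches could have gone to either gene.

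The sequences ahead of the start sites of Cnp and Nkiras2 are shown because these were the members that passed the test below. They are the bases upstream of the RefSeq start (GRCm38.p6) that lie in no annotated exon, read 5′ to 3′ on the plus strand, from chr11:100574689-100574903 for Cnp and chr11:100622705-100622875 for Nkiras2. The Nkiras2 stretch lies inside the gene as GENCODE draws it, between exons of its longer models. Capitals mark a match to ACAAAG, the core of SOX factor sites, in the first and to CCGGAAGT, an ETS factor site, in the second.
Cnp: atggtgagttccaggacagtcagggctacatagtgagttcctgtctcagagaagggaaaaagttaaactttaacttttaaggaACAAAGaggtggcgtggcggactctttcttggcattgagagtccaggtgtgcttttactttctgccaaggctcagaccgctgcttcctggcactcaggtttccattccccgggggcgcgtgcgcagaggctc
Nkiras2: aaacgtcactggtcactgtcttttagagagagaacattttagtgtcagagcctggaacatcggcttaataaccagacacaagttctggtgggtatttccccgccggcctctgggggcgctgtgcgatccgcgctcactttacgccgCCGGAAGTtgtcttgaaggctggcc
Searched on both strands over windows of 300 bases around each RefSeq start, ACAAAG occurred in 18.7% of all 32851 promoter windows and CCGGAAGT in 3.89%. No window was held for Dhx58, so it was not searched. Among the other members, ACAAAG was found in the Cnp window only, and CCGGAAGT in those of Nkiras2 and of the upstream start of Dnajc7. GGGCGG, the GC box (35.7% of all windows), was found in the windows of Cnp, Dnajc7, Nkiras2 and Rab5c, CCAAT (37.4%) in those of Rab5c and the other start of Dnajc7, and TATAAA (13.6%) in none of the 6 windows held for Cnp, Dnajc7, Nkiras2, Kat2a and Rab5c. These matches describe the letters and not the binding of a factor.

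Library totals ran from 16897231 to 21527886 estimated counts, and levels are given as CPM, counts scaled to the effective size of each library. Cdk7, the targeted gene, fell from 21.5 ± 0.70 to 11.6 ± 1.35 CPM (SD, n = 4 and 4; log2 fold change -0.89, edgeR quasi-likelihood, Benjamini-Hochberg adjusted p = 0.000181), with no overlap between the groups. The groups also differed in other ways. By Xist and Y-linked transcripts, the female libraries were Ctrl 1 and the 4 of CNP-Cdk7cKO, and Ctrl 2, 3 and 4 were male. Skeletal muscle markers took 0.058% to 0.579% of counts in Ctrl, with the highest share in Ctrl 4, and 0.0111% to 0.0718% in CNP-Cdk7cKO, and 19 of 20 of them fell, where 6.60% of all tested genes were called lower and 5.07% higher. The number that fell was 4 with limma-voom, 0 with a covariate for Xist and 1 in the female libraries alone. It was 12 without Ctrl 2, 13 without Ctrl 4, and 9, 8 and 7 without CNP-Cdk7cKO 1, 3 and 4. The summed level of the muscle markers was 600.3 to 5924 CPM in the controls and 109 to 711 CPM in the knockout libraries, and none of the 20 was at 0 in every library. Of 10 macrophage markers 5 rose (summed level 405 to 504 CPM in the controls, 488 to 583 CPM in the knockout libraries), and of 10 fibroblast and perineurial markers 3 rose. With a covariate for Xist or for the muscle markers, 1 macrophage marker and 0 fibroblast and perineurial markers were called higher by edgeR, and in the female libraries alone 0 and 0. Without Ctrl 1, Ctrl 2, Ctrl 3, CNP-Cdk7cKO 3 or CNP-Cdk7cKO 4, 1 macrophage marker was called, and 3 were without CNP-Cdk7cKO 2. For fibroblast and perineurial markers the number was 5 without CNP-Cdk7cKO 4, with limma-voom and with the replicate block. Beyond the covariates named with a result below, their part in it was not tested.

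Cnp stood apart from all the other members. The 4 Ctrl libraries had 3312, 2981, 3098 and 3143 CPM, the 4 CNP-Cdk7cKO libraries 1367, 1314, 1423 and 1454 CPM. Every control was far above every knockout library, and the spread inside either group was small beside the gap. Cnp fell from 3134 ± 137 to 1389 ± 61.6 CPM (SD, n = 4 and 4), with -1.17 ± 0.04 (SE) as log2 fold change (adjusted p = 3.98e-07 by edgeR). Of the 15056 genes tested it had the lowest p-value. It ranked 16 by mean CPM in Ctrl and 52 in CNP-Cdk7cKO. Whole-nerve RNA does not separate fewer myelinating cells from less Cnp RNA per cell.

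**Figure D1:**
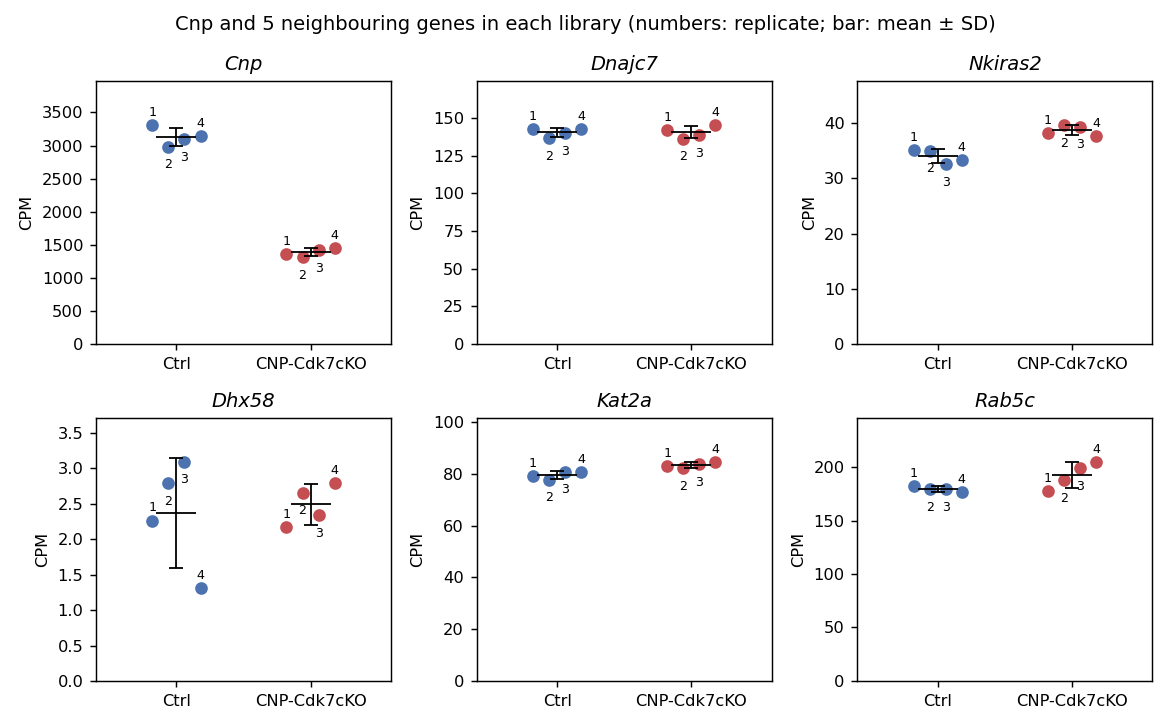
CPM (vertical axes, starting at 0, a scale per gene) of the 6 genes in the 4 Ctrl and 4 CNP-Cdk7cKO libraries. Points are libraries with their replicate number, and bars are the mean ± SD. Cnp falls from 3134 to 1389 CPM, Nkiras2 and Kat2a sit slightly higher in all knockout libraries, and the points of Dnajc7, Dhx58 and Rab5c overlap.

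The level of Cnp in the knockout nerves lay slightly below the 50% that 1 of 2 equal alleles would give. In CNP-Cdk7cKO it was 44.3% of the Ctrl level, with a 95% interval of 41.4% to 47.4% from the same fit. On the log2 scale the interval was -1.27 to -1.08, against -1 for a halving. The fall was as large within the female libraries, with Ctrl 1 as the only control, whose spread was taken to be that of the knockout group (log2 fold change -1.26), and with a covariate for Xist (-1.25) or for the muscle markers (-1.25). Ctrl 1 had the highest Cnp of the 4 controls. All knockout libraries were female, so the fit with the Xist covariate also rests mainly on Ctrl 1. It is not a separate check from the female libraries. The counts were summed over the gene, so they do not tell transcripts of the unmodified allele from any that the Cre allele makes.

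Other genes of the same cells were also lower, though by less. In a list of 24 myelin and Schwann cell genes, 10 fell, 0 rose and 14 did not pass, and the median log2 fold change was -0.17, against 0.0031 over all genes tested. Mbp and Pmp22, proteins of compact myelin, fell from 29061 ± 1851 to 24936 ± 1105 CPM (SD, n = 4 and 4; log2 fold change -0.22) and from 19377 ± 941 to 16957 ± 733 CPM (-0.19). Prx, which links the Schwann cell to its basal lamina, went from 7669 to 7940 CPM without passing. The number that fell was 6 with a covariate for Xist, 5 with one for the muscle markers and 3 in the female libraries alone.

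Relative to these 24 genes, Cnp was close to a halving. The log2 CPM of Cnp minus the mean log2 CPM of the list was 1.49, 1.40, 1.48 and 1.52 in the controls and 0.47, 0.35, 0.57 and 0.58 in the knockout libraries. The groups did not overlap, and each knockout library was well below each control. The difference between the means was -0.98 (two-sided exact permutation test over libraries, p = 0.0286, the smallest that 4 against 4 allow), which is 50.7% of the Ctrl ratio. With a single library left out it lay between -1.01 and -0.93. Which genes stand for the cell type bears on this value, since the members of the list did not move alike.

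**Figure D2:**
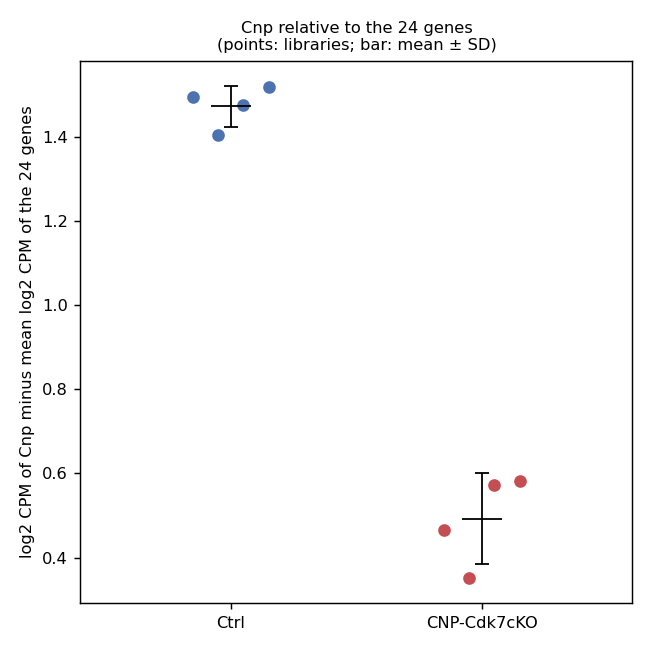
log2 CPM of Cnp minus the mean log2 CPM of 24 myelin and Schwann cell genes (vertical axis) in each library of the 2 groups, as points, with the mean ± SD as bars. The knockout libraries lie between 0.35 and 0.58, all below the controls at 1.40 to 1.52.

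No neighbour among the 5 fell by the test. Of these, 1 rose and 4 did not pass, where 11.7% of all tested genes were called in either direction, 5.07% higher and 6.60% lower. Their log2 fold changes ran from 0.00090 to 0.19, with a median of 0.07 against 0.0031 over all tested genes. The CPM of the groups did not overlap for 2 of the 5, Nkiras2 and Kat2a, against 18.8% of all genes tested. A single call among 5 genes is near that background.

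Dnajc7 encodes a co-chaperone with tetratricopeptide repeats that works with both HSP70 and HSP90. Its controls had 142, 137, 139.8 and 143 CPM, its knockout libraries 142, 136, 139 and 145 CPM. The groups overlapped fully. Its log2 fold change was 0.00090 ± 0.04, and the 95% interval of its knockout level was 94.0% to 106.5% of Ctrl (edgeR quasi-likelihood adjusted p = 0.993). Between 2325 and 2978 counts stood behind each value. Its sign changed between alternatives, with log2 fold changes between -0.02 and 0.02.

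Nkiras2 encodes a small Ras-like GTPase that binds the inhibitors of NF-kappaB and slows their degradation. Its controls had 35.2, 35.01, 32.6 and 33.4 CPM, its knockout libraries 38.2, 39.7, 39.4 and 37.7 CPM. All knockout libraries were above all controls. The rise from 34.1 ± 1.25 to 38.7 ± 0.95 CPM (SD, n = 4 and 4) was a log2 fold change of 0.19 ± 0.05 (SE), or 113.8% of Ctrl with a 95% interval of 105.7% to 122.4% (edgeR quasi-likelihood adjusted p = 0.0294). The call was lost with a covariate for Xist (edgeR adjusted p = 0.473) or the muscle markers (0.531) and in the female libraries alone (0.634). It was also lost without Ctrl 2, Ctrl 3, Ctrl 4, CNP-Cdk7cKO 1, CNP-Cdk7cKO 2 or CNP-Cdk7cKO 3 (edgeR adjusted p = 0.0529 to 0.0856), and the value stayed between 0.13 and 0.20 in all these fits.

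Kat2a encodes GCN5, the histone acetyltransferase of the SAGA and ATAC coactivator complexes. Its controls had 79.1, 77.8, 80.8 and 80.5 CPM, its knockout libraries 83.1, 82.3, 83.7 and 84.7 CPM. The groups did not overlap, but the gap between the highest control and the lowest knockout library was narrow. The log2 fold change was 0.07 ± 0.04, with an interval of 98.9% to 111.2% of Ctrl, which was not a call (adjusted p = 0.293 by edgeR).

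Rab5c encodes a small GTPase of early endosomes that directs their fusion. Its controls had 183, 179.7, 179.7 and 177 CPM, its knockout libraries 178, 188, 199 and 205 CPM. The controls lay close together, 3 knockout libraries were above them and CNP-Cdk7cKO 1 was among them. The log2 fold change of 0.10 ± 0.05, an interval of 99.4% to 115.6% of Ctrl, was not a call either (adjusted p = 0.230 by edgeR), and it was 0.01 with a covariate for the muscle markers.

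Dhx58 encodes LGP2, a helicase that tunes the RIG-I-like sensors of viral RNA and is itself induced by interferon. It was the lowest of the 6, with 2.26, 2.79, 3.10 and 1.32 CPM in the controls and 2.17, 2.66, 2.34 and 2.80 CPM in the knockout libraries. The knockout libraries lay inside the range of the controls, among which Ctrl 4 was low. Between 27 and 66 counts stood behind each value, and the interval was wide, 72.3% to 153% of Ctrl (0.07 ± 0.25 in log2 fold change, adjusted p = 0.884 by edgeR), and the controls had 2.37 ± 0.78 CPM (SD, n = 4), the knockout libraries 2.49 ± 0.29 CPM. Its log2 fold change was -0.13 without Ctrl 4 and -0.40 with a covariate for the muscle markers, and passed in neither.

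Levels can be set against each other once divided by exonic length. In CPM per kb of merged exon, Cnp stood first at 861 in Ctrl and 382 in CNP-Cdk7cKO. Rab5c followed at 81.9 and 87.8, Dnajc7 at 28.9 and 28.9, Kat2a at 22.9 and 23.98, Nkiras2 at 9.52 and 10.8, and Dhx58 at 0.724 and 0.762. The order was the same in both groups, so that the fall of Cnp left it far above its neighbours. Dnajc7 and Kat2a were the closest pair in that order. Their order depends on the merged exonic lengths used, 4863 bases for Dnajc7 and 3480 for Kat2a, and other lengths were not tried.

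In the wider region, genes that changed lay on both sides of Cnp and moved in both directions. Of 56 other genes in the table within 500 kb of Cnp, the 5 neighbours among them, 23 were tested, and 3 rose and 3 fell. That is 26.1% called, against 11.7% of all tested genes and 12.6% of those on chromosome 11 more than 5000 kb from Cnp. The share was 15.7% within 1000 kb (5 rose and 3 fell of 51) and 14.2% within 5000 kb (16 rose and 12 fell of 197). The median log2 fold change was 0.10 within 500 kb, 0.065 within 1000 kb and 0.059 within 5000 kb. It was 0.0077 on chromosome 11 beyond 5000 kb from Cnp and 0.0031 over all tested genes. Within 500 kb the CPM of the groups did not overlap for 9 of the 23 tested genes, against 18.8% of all genes tested. These counts are small, and neither they nor the medians were tested as sets. All share the samples of a single comparison. Within 500 kb 0 genes were called with a covariate for Xist or in the female libraries alone, and 2 with a covariate for the muscle markers, in fits by edgeR that called 75, 37 and 105 genes higher and 163, 77 and 154 lower in all. The number called higher there was 1 without Ctrl 2, Ctrl 3, Ctrl 4 or CNP-Cdk7cKO 3.

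**Figure D3:**
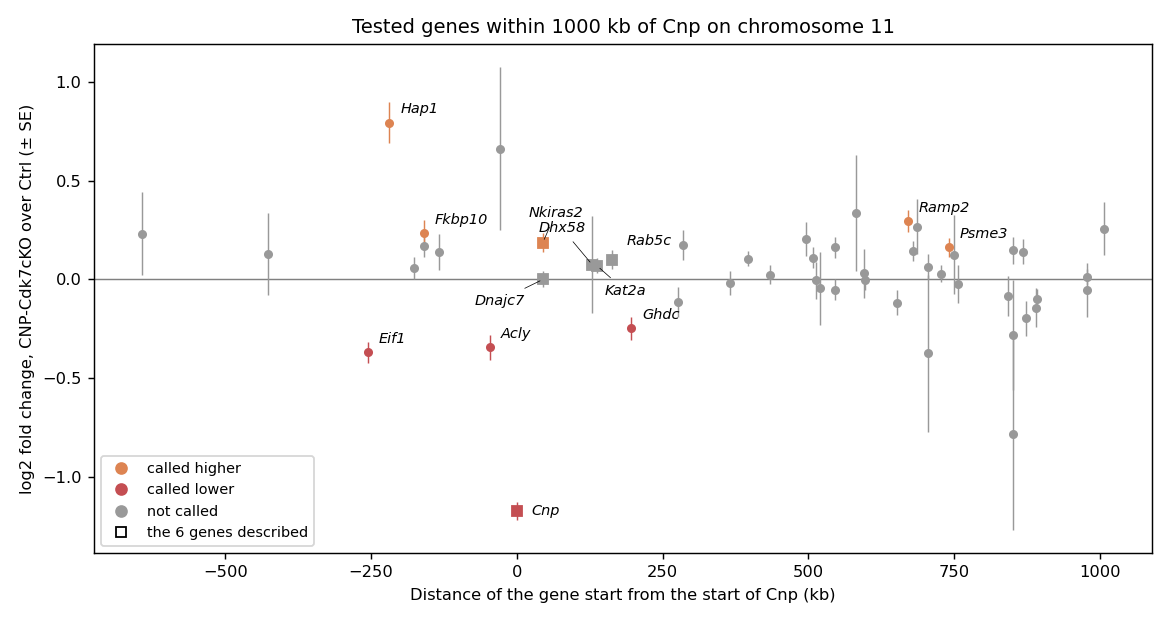
log2 fold change (CNP-Cdk7cKO over Ctrl, ± SE) of each tested gene within 1000 kb of Cnp against the distance of its start from the start of Cnp in kb. Squares are the 6 genes described, orange and red points passed the test. Cnp (-1.17) is the lowest of all, and the 5 neighbours described lie between 0.00090 and 0.19.

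The tested genes nearest to Cnp were Dnajc7 and, 2.34 kb ahead of its start, Ttc25, a gene of motile cilia with 0.583 ± 0.25 CPM in the controls, 0.927 ± 0.42 CPM in the knockout libraries and no call. Acly, 46.9 kb from Cnp, encodes ATP citrate lyase, which makes cytosolic acetyl-CoA for lipid synthesis. Its controls had 273, 257, 273 and 245 CPM, its knockout libraries 224, 215, 204 and 183 CPM. The groups did not overlap, and Acly fell by 0.34 ± 0.06 on the log2 scale (adjusted p = 0.0067 by edgeR). Fkbp10, a prolyl isomerase of the endoplasmic reticulum that acts on collagen, is 150 kb away and rose from 179 ± 4.17 to 211 ± 20.8 CPM (0.24 ± 0.06). Hap1, the huntingtin-associated protein of vesicle transport, 219 kb away, had 21.7, 18.9, 21.6 and 19.0 CPM in the controls and 40.7, 36.5, 28.2 and 35.3 CPM in the knockout libraries. Its log2 fold change of 0.79 ± 0.10 was the highest of the called genes within 500 kb (edgeR quasi-likelihood adjusted p = 0.000891). Eif1, a translation initiation factor 253 kb away, fell from 817.5 ± 10.4 to 633 ± 51.2 CPM (-0.37 ± 0.05), and Ghdc, on the other side at 174 kb, fell from 31.8 ± 1.71 to 26.8 ± 1.38 CPM (-0.25 ± 0.06). The log2 fold changes of these 5 genes kept their direction with a covariate for Xist and in the female libraries alone. They were -0.41 and -0.41 for Acly, -0.39 and -0.40 for Eif1 and -0.34 and -0.34 for Ghdc. For Fkbp10 they were 0.22 and 0.21, and for Hap1 0.69 and 0.70. All knockout libraries were female, so both fits rest mainly on Ctrl 1 and are not separate checks. In neither fit did any of the 5 pass (edgeR adjusted p = 0.0575 to 0.505). That of Fkbp10 was also lost without any of the 4 controls or CNP-Cdk7cKO 3 (edgeR adjusted p = 0.0552 to 0.0981), and that of Ghdc without Ctrl 1, Ctrl 2, CNP-Cdk7cKO 1 or CNP-Cdk7cKO 3 (0.0509 to 0.0632).

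Partners of the neighbours were read from fixed lists. Of 25 tested SAGA and ATAC genes, 0 passed by edgeR's quasi-likelihood test (median log2 fold change 0.0096). At an unadjusted p under 0.05 there were 1 higher and 2 lower, and DESeq2 called 1 higher and 1 lower, limma-voom 0. Kat2b, the paralogue of Kat2a, measured 37.0 ± 3.56 and 31.4 ± 1.99 CPM (edgeR adjusted p = 0.0631), and Usp22, the deubiquitinase of SAGA, 133 and 127.5 CPM. Of 13 NF-kappaB genes, 4 rose and 0 fell (median 0.07). They included the subunit gene Nfkb2, which rose from 60.0 ± 3.65 to 86.0 ± 1.02 CPM (0.52), and the inhibitor genes Nfkbie (0.96) and Nfkbia (0.44), while Nkiras1, the paralogue of Nkiras2, measured 12.9 and 14.2 CPM and did not pass. Among 22 genes of HSP70, HSP90 and their co-chaperones 5 rose and 0 fell (median 0.05), among them the inducible Hspa1b (0.92), the HSP70-HSP90 adaptor Stip1 (0.19) and the HSP90 co-chaperone Fkbp5 (0.39). Hspa1b and Hspa1a are near-identical copies, so reads may have been split between them. With a covariate for Xist, 3 of the NF-kappaB genes and 1 of the chaperone genes were called higher, with one for the muscle markers 2 and 1, and in the female libraries alone 1 and 1. The number of chaperone genes called higher was 1 without Ctrl 2 and 3 without Ctrl 3, Ctrl 4, CNP-Cdk7cKO 1, CNP-Cdk7cKO 2 or CNP-Cdk7cKO 3.

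Rab5 and early endosome genes were split, with 1 rise and 2 falls among 20 (median -0.02). Rin1, an exchange factor for Rab5, rose (0.59), and the Rab5 effector Appl2 was one of those that fell (-0.23). The paralogues Rab5a and Rab5b had 110.3 ± 5.47 and 179.4 ± 4.72 CPM in the controls, 95.7 ± 13.1 and 173 ± 6.11 CPM in the knockout libraries, and neither passed. Of 16 genes of the RIG-I-like receptor pathway 1 fell and 0 rose (median -0.10). The sensors Ddx58 (11.2 and 11.8 CPM) and Ifih1 (3.86 and 3.67 CPM) did not pass. With either covariate, or in the female libraries alone, 0 genes of both lists were called by edgeR. The fall in the RIG-I-like list was also lost without Ctrl 2, Ctrl 3, CNP-Cdk7cKO 1 or CNP-Cdk7cKO 4. In the Rab5 list 0 genes were called higher with DESeq2, with no filter on low counts and without any single library other than Ctrl 3. The number called lower there was 1 without any single library other than CNP-Cdk7cKO 2 or CNP-Cdk7cKO 4. With limma-voom 3 genes of the RIG-I-like list were called lower, and with DESeq2 2. All these lists are read against the 5.07% of tested genes called higher and 6.60% called lower, and the macrophage and muscle markers that moved with the groups are given above.

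Genes with patterns most like each member were found by Pearson's correlation of log2 CPM over the 8 libraries, among 9627 or 9628 other genes with a mean of at least 10 CPM. The 2 groups form separate clusters for Cnp, so its likeness reflects mainly the difference between them, and no test was made. The groups did not overlap for Nkiras2 and Kat2a either, so their likeness may also reflect that difference in part. The 5 most like Cnp were Fdps of sterol synthesis (r = 0.996), Cttnbp2 (0.994), the choline transporter gene Slc44a1 (0.992), the myelin tight junction gene Cldn19 (0.991) and the potassium channel gene Kcna2 (0.991). Their falls were smaller, with log2 fold changes from -0.67 for Fdps to -0.33 for Cttnbp2, and none of the 5 is on chromosome 11. For Dnajc7 the nearest were Ndufb4 (r = 0.956) and Mettl23 (0.933), for Nkiras2 Sil1 (0.974) and Foxc2 (0.965), for Kat2a Tmem183a (0.989) and Pa2g4 (0.980), and for Rab5c Exosc5 (0.995) and Abcf1 (0.973). Dhx58 was most like Ddx58, the gene of the sensor RIG-I (r = 0.947).

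**Figure D4:**
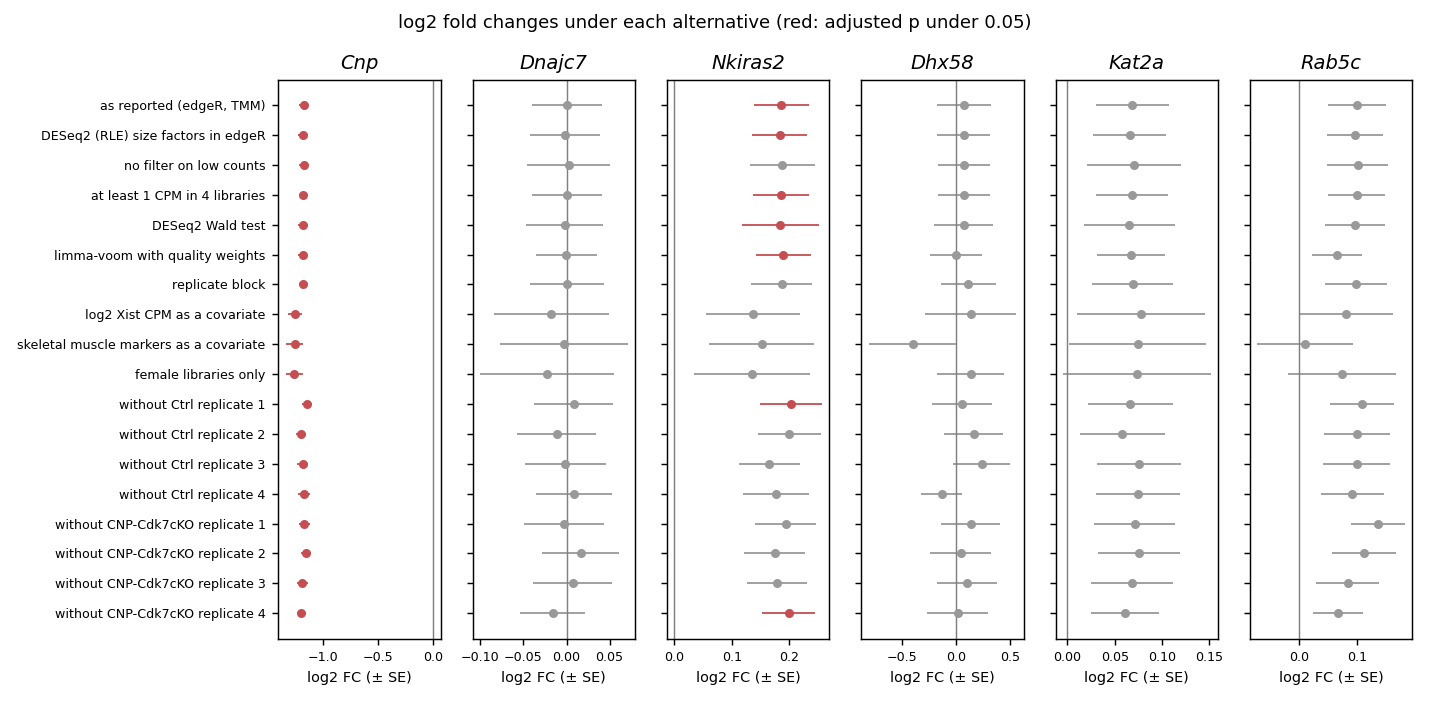
log2 fold change (± SE) of each of the 6 genes under the fit reported and each alternative, red where the adjusted p was under 0.05. Scales differ between genes. Cnp stays between -1.26 and -1.15 and passes in all of them, Nkiras2 stays above 0 but passes in only some, and the other 4 pass in none.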

How the data were processed

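The authors deposited a table of estimated counts per Ensembl gene, made with STAR and Salmon on mouse build GRCm38, per the submitters' processing notes. The versions, the settings and the annotation used there are not given in the sources used for this text. Stranded libraries started from 250 ng RNA each, per the labels' protocols. Estimated counts were rounded, as 8.29% of the deposited values had decimals. Of 55487 identifiers, 55227 matched GENCODE vM21 (GRCm38), which gave symbols and positions.

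Genes were filtered (filterByExpr, minimum count 10, minimum total 15), normalized by TMM and compared with the quasi-likelihood test of edgeR 4.0.16 (R 4.3.3, limma 3.58.1), with calls made under an adjusted p (Benjamini-Hochberg) of 0.05 over all 15056 tested genes. Standard errors came from the F statistic. Alternatives included DESeq2 1.42.0, limma-voom, covariates and leaving out each library. Distances run between gene bodies unless starts are named. Steps were tested on simulated counts. Replicates differed by more than counting noise (chi-square per degree of freedom 3.86 to 17.6). Log2 CPM used a prior count of 2.

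The members and lists were chosen with earlier results of these data known. Beside the members, the naming rule gave called genes within 500 kb and the nearest gene on each side, up to 3 called genes per partner list or the most abundant, fixed paralogues, the 4 most abundant myelin genes, and the genes most like each member (5 for Cnp, 2 for each other). Cell-type lists without a result above were endothelial and mural markers (1 of 10 rose, 1 fell) and adipocyte markers (0 of 3 tested called). Some genes that the rule names are not reported here.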

Additional observations from a re-analysis of the deposited data

Results flagged for a closer look

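Fkbp10, 150 kb from Cnp, measured 173.1 CPM in Ctrl 2, set apart from the other controls, of which the nearest had 181.2 CPM; this gap was 0.926 of the range of the 4 controls. It was the 1 case among 26 groups of 4 libraries looked at (the members, the called genes within 500 kb, Cdk7 and the ratio of Cnp to the myelin genes, in each group), where chance gives about 1 in 20 groups.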

How the results depend on the processing

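Cnp kept its direction and its call under every alternative run, with log2 fold changes from -1.26 to -1.15, and its ratio to the myelin list lay between -1.01 and -0.93 with 1 library left out. Kat2a and Rab5c stayed positive and uncalled in all of them. The counts over all genes fell with a covariate for Xist (75 higher, 163 lower), with one for the muscle markers (105 and 154) and in the female libraries alone (37 and 77, fewer samples), and leaving out 1 library gave 470 to 655 higher and 653 to 860 lower. Within 500 kb of Cnp the same settings gave 0 higher and 0 lower, 1 and 1, and 0 and 0, and leaving out 1 library 1 to 3 higher and 2 to 3 lower. The log2 fold change of Nkiras2 was 0.1876 with no filter on low counts (edgeR adjusted p = 0.0542), 0.1367 with the Xist covariate, 0.152 with the muscle covariate, 0.1347 in the female libraries and 0.1652 to 0.2023 with 1 library left out. Dnajc7 changed sign around 0, with -0.002009 under DESeq2 size factors, -0.001945 with DESeq2, -9.782e-05 with limma-voom, -0.01772 with the Xist covariate, -0.00331 with the muscle covariate, -0.02249 in the female libraries and -0.01608 to 0.0163 with 1 library left out. Dhx58 changed sign with limma-voom (-0.0003069), with the muscle covariate (-0.3986) and without Ctrl 4, with -0.1302 to 0.2354 over the libraries left out. The cause of these changes was not tested. Dhx58 rests on 27 to 66 counts a library.

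With the replicate number as a block, 682 genes were called higher and 926 lower. Nkiras2 had 0.1862 (edgeR adjusted p = 0.057) and Cnp -1.17. The numbers share no stated animal, litter or day. Correlations of the deviations of same-numbered libraries were -0.05, 0.14, 0.33 and 0.0062 over 11302 genes, and not every library matched its own number best, so the numbers were not taken to pair the samples.

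The counts over the fixed gene lists under these alternatives were added after seeing the data.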
